A study of Mus musculus with 4 samples.

Results

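The genes described here handle zinc and iron: the metallothioneins Mt1 and Mt2, the zinc transporters Slc30a1, Slc39a4, Slc39a8 and Slc39a14, and the iron genes Trf, Tfrc, Fth1 and Slc40a1. They were taken by exact gene symbol, and all 10 had a row among the 36808 genes in the files. RNA came from whole mouse embryos of the strain background (C3H/HeH x 101/H)F1, in 4 groups with 1 directional mRNA-seq library each. These were Tc/Tc and wild type at E10.0 to 10.5 (E10 here), and Tc/Tc and wild type at E7.5 to 8.0 (E8 here). Tc is an allele of T (Brachyury), a transcription factor of the primitive streak and notochord, and Tc/Tc embryos carry it on both chromosomes. The sources used here do not give how many embryos went into a library or whether membranes stayed on them. The 10 genes were selected on their FPKM values and their ratios between these libraries, so counts over them describe the libraries and test nothing.

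Metallothioneins are small cysteine-rich proteins that bind zinc and copper, and their genes are switched on when the zinc-sensing factor MTF1 binds metal response elements. Iron travels on transferrin, enters cells through the transferrin receptor, is stored in ferritin and leaves through ferroportin. When iron is scarce, iron regulatory proteins bind hairpins called iron responsive elements, which blocks translation of ferritin and ferroportin mRNA and stabilises transferrin receptor mRNA. In early mouse development the visceral endoderm, later the lining of the yolk sac, takes up and passes on nutrients, metals among them.

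Matches to motifs known from the control of genes by metals are shown first, which is a description and not evidence of binding. Promoter windows from RefSeq (build GRCm38.p6, 250 bases before and 50 after each annotated start) were at hand for 6 of the 10 genes. These were searched on both strands for the cores TGCACNC and TGCGCNC of the metal response element. Mt1 and Mt2 lie side by side on chromosome 8, with annotated starts 6471 bases apart. Below are both promoters on the plus strand, from 250 bases before to 30 after the start, at chr8:94172368-94172647 for Mt2 and chr8:94178839-94179118 for Mt1. Capitals mark the cores, read on either strand.
Mt2: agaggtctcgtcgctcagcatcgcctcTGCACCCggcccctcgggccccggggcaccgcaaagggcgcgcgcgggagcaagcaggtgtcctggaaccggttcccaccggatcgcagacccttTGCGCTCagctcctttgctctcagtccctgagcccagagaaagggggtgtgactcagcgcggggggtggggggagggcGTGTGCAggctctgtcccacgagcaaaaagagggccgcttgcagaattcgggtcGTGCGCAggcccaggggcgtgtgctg
Mt1: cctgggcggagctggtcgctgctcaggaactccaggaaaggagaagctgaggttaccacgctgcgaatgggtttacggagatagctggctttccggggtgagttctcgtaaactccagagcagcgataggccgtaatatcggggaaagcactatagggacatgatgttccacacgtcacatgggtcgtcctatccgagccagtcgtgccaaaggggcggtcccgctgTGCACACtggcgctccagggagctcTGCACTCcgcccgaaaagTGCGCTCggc

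The Mt2 window held 4 cores and the Mt1 window 3. Of all 32851 promoter windows of this length, 25.7% held at least 1 core, 7.11% at least 2 and 1.97% at least 3. The zinc exporter gene Slc30a1 had 2 cores, and of the alternative starts of Slc39a8 one window had 1 and the other none. At Tfrc, one window had a pair that overlap each other on opposite strands, and the second had none. Neither Fth1 window had a match. Counting only the bases before the start, Mt2 had 3 cores, 1 window of Tfrc had the overlapping 2, and Mt1, Slc30a1 and 1 window of Slc39a8 had 1 each, against 21.4% of windows with at least 1. The other Mt1 cores begin at positions 3 and 21 counted from its annotated start, so these counts depend on where a start is annotated.

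**Figure D1:**
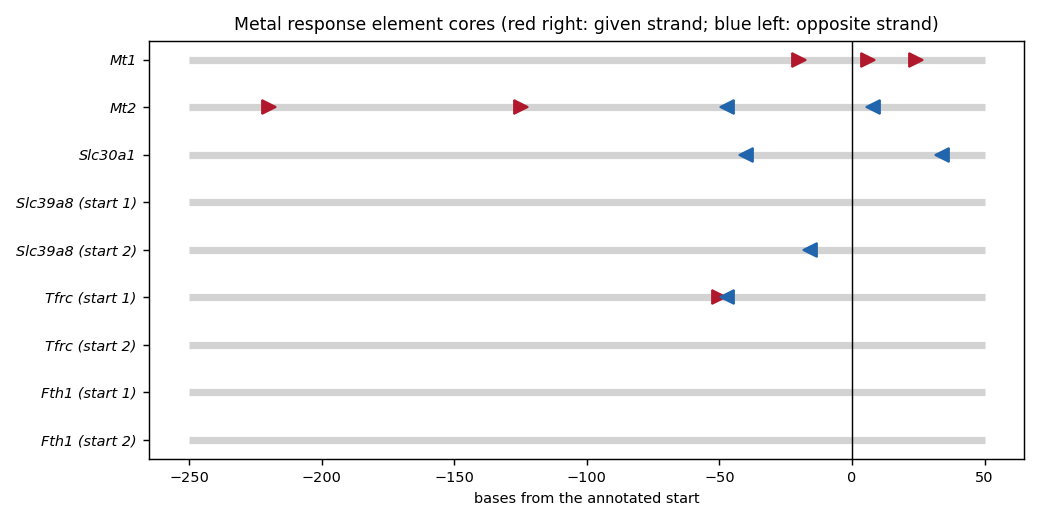
Positions of the metal response element cores in the promoter windows of the 6 genes with a window, in bases from the annotated start, with 1 line for each annotated start and an arrowhead for each match and its strand. Mt2 has 4 matches and Mt1 has 3, and the Fth1 lines are empty.

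Iron responsive elements were searched in GENCODE M21 transcripts (GRCm38) as a CAGTGN loop between paired arms. The 5 bases before the loop pair with the 5 bases after it, and a C stands before those. Whether that C is unpaired was not checked. Among 21747 protein-coding genes the motif was in the 5′ UTR of 28 (0.129%) and in the 3′ UTR of 127 (0.584%). Fth1 and Slc40a1 had 1 each in the 5′ UTR, and Tfrc had 4 in the 3′ UTR. They are printed as 30 bases of the transcript strand with the loop in capitals, because such elements are known from the control of these mRNAs by iron. These are motif matches, and their action in these embryos was not tested. The Fth1 site is at chr19:9982731-9982760 on the plus strand and the Slc40a1 site at chr1:45925465-45925494 on the minus strand. The Tfrc sites shown, the first and second of the 4, are at chr16:32631218-32631247 and chr16:32631597-32631626 on the plus strand.
Fth1: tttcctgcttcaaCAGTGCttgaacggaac
Slc40a1: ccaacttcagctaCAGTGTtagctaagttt
Tfrc, first: taattatcggaagCAGTGCcttccataatt
Tfrc, second: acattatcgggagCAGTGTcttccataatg

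Values are FPKM, fragments per kilobase of transcript and per unit of mapped fragments, so levels of different genes can be compared per length. E8 and E10 levels come from the authors' genotype tables, and the stage tables give a second estimate of each library except Tc/Tc E10. The second estimates differed from the first with an SD on the log2 scale of 0.174 in Tc/Tc E8 and again 0.174 in wild type E10, and of 0.0609 in wild type E8, and this is the only technical error the files give. There is no replicate, so no difference below could be set against the spread between embryos. Summed FPKM was 610808 in Tc/Tc E10, 598365 in wild type E10, 737448 in Tc/Tc E8 and 629048 in wild type E8. Among genes above 0 in both libraries and under 0.5 FPKM in one or both, the most common ratio of Tc/Tc to wild type was 1.02 at E8 and 0.916 at E10. These ratios held in 58 of 3827 such genes at E8 and 46 of 3728 at E10. They are taken here as a rough worth of 1 fragment in Tc/Tc relative to wild type. The number of fragments per gene is unknown. T itself had 30.4 FPKM in Tc/Tc embryos and 7.18 FPKM in wild-type embryos at E10, and 48.3 FPKM in Tc/Tc embryos and 36.7 FPKM in wild-type embryos at E8, from either allele, so it checks no label.

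Differences are given as the log2 ratio of FPKM + 1, which understates those of low genes, and a gene is called higher or lower at a ratio of 1 or more either way, a fold of 2, if it reached 1 FPKM in one or both libraries. All 10 genes reached it in each comparison, although Slc39a4 did so at E10 through the Tc/Tc library alone. At E8, 6 of the 10 genes were higher in Tc/Tc than in wild type and 0 lower, where 7.22% of 13547 genes passed, 4.21% higher and 3.0% lower. At E10, 3 were higher and 0 lower, where 8.03% of 14265 genes passed, 4.94% higher and 3.08% lower. For the 10 genes the median ratio was 1.12 at E8 and 0.87 at E10, beside 0.06 and 0.16 over all genes. Since the choice of genes used these values, nothing is read from these counts.

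**Figure D2:**
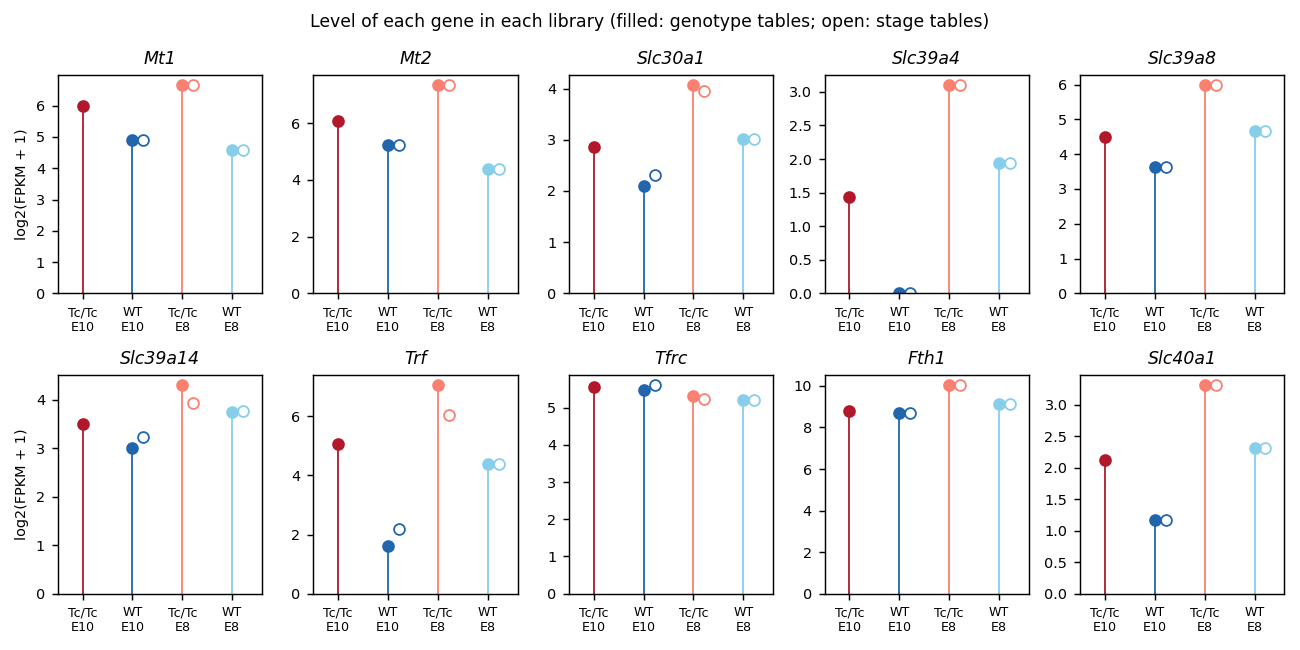
Level of each of the 10 genes as log2(FPKM + 1) in Tc/Tc and wild type at E10 and at E8, with a filled point for the genotype tables and an open one for the stage tables. Mt1 and Mt2 are highest in the Tc/Tc E8 library, Tfrc is nearly level across the 4 libraries, and Trf is the gene whose estimates for Tc/Tc E8 lie farthest apart.

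Mt2 (ENSMUSG00000031762) stood at 162 FPKM in Tc/Tc and 20.1 FPKM in wild type at E8, an 8.03-fold ratio of FPKM and a log2 ratio of 2.94. It was 37th from the top among the genes compared. At E10 it stood at 67.0 FPKM in Tc/Tc and 36.2 FPKM in wild type, a log2 ratio of 0.87. The excess in Tc/Tc was thus past the fold of 2 at E8 and short of it at E10, a difference between the stages of -2.07 on the log2 scale. Mt1 (ENSMUSG00000031765) followed the same order of libraries. It stood at 100.3 FPKM in Tc/Tc and 22.9 FPKM in wild type at E8, a log2 ratio of 2.08. At E10 it stood at 62.0 FPKM in Tc/Tc and 28.8 FPKM in wild type, a log2 ratio of 1.08. That value is just past the fold of 2, and with ratios centred on the median of all genes it was 0.92. The level of Mt2 relative to Mt1 was 1.61 in Tc/Tc E8 and 0.879 in wild type E8, so the more abundant of the pair differed between the genotypes at that stage. At E10 it was 1.08 in Tc/Tc and 1.26 in wild type. Second estimates of both genes equalled the first within 0.1 FPKM.

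The remaining members of the family and the metal sensor gave little to compare. Mt3 and Mt4, metallothioneins best known from brain and stratified epithelium, were listed at 0 in each library. Mtf1, the sensor itself, was at 10.7 FPKM in Tc/Tc and 10.4 FPKM in wild type at E10 and was not estimated at E8.

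Of the zinc transporters, Slc30a1 (ZnT1, ENSMUSG00000037434) exports zinc across the plasma membrane and is itself a target of MTF1. It stood at 15.8 FPKM in Tc/Tc and 7.04 FPKM in wild type at E8, a log2 ratio of 1.06. The second estimates were 14.5 and 7.05 FPKM and gave 0.95, and rescaling the libraries to equal totals gave 0.85, both short of the fold of 2. By E10 the values were 6.26 FPKM in Tc/Tc and 3.30 FPKM in wild type, a log2 ratio of 0.76. Slc39a8 (ZIP8, ENSMUSG00000053897), an importer of zinc and manganese, stood at 62.6 FPKM in Tc/Tc and 24.2 FPKM in wild type at E8, a log2 ratio of 1.33. At E10 it stood at 21.6 FPKM in Tc/Tc and 11.4 FPKM in wild type, a log2 ratio of 0.87. It was the most abundant of the 4 transporters in each library.

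Slc39a4 (ZIP4, ENSMUSG00000063354), the zinc importer of gut and visceral yolk sac whose loss causes acrodermatitis enteropathica in people, was the least abundant of the 4 transporters. It stood at 7.59 FPKM in Tc/Tc and 2.82 FPKM in wild type at E8, a log2 ratio of 1.17, or 0.97 with equal totals. At E10 it stood at 1.70 FPKM in Tc/Tc and was listed at 0 in wild type, in both tables that hold the wild-type library. Slc39a14 (ZIP14, ENSMUSG00000022094), which carries zinc, manganese and iron not bound to transferrin, stood closer between the genotypes. It had 18.7 FPKM in Tc/Tc and 12.5 FPKM in wild type at E8, then 10.3 FPKM in Tc/Tc and 7.05 FPKM in wild type at E10. The log2 ratios were 0.54 and 0.49, and with the other estimates they were 0.15 and 0.26.

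Trf (ENSMUSG00000032554) encodes transferrin, the iron carrier of plasma. It stood at 132 FPKM in Tc/Tc and 20.1 FPKM in wild type at E8, a log2 ratio of 2.65. The stage table gave 65.5 FPKM for the same Tc/Tc library, with which the ratio was 1.65. For E10 the tables gave 32.4 FPKM in Tc/Tc and 2.06 FPKM in wild type, a log2 ratio of 3.45 and the highest of the 10 genes at that stage. The second estimate of that wild-type library was 3.61 FPKM, which gave 2.86. Both estimates put Trf past the fold of 2 at both stages, but its size moved by about 1 log2 unit at E8.

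Tfrc (ENSMUSG00000022797), the transferrin receptor gene, differed least. It stood at 38.4 FPKM in Tc/Tc and 35.6 FPKM in wild type at E8. Its E10 levels were 45.9 FPKM in Tc/Tc and 43.2 FPKM in wild type. The log2 ratios were 0.11 and 0.09, below the largest SD of re-estimation (0.174), though the E8 ratio is above that of wild type E8 (0.0609). Their sign depends on the estimate and scaling: the E8 ratio was -0.11 with equal totals, and the E10 ratio was -0.05 with the other estimate of wild type and -0.075 after centring on the median. Carrier and receptor thus stood apart in both genotype comparisons, with Trf far higher in Tc/Tc and Tfrc near level.

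Fth1 (ENSMUSG00000024661), the ferritin heavy chain with the enzyme site that oxidises iron, was the most abundant of the 10 genes in every library. It stood at 1045 FPKM in Tc/Tc and 562 FPKM in wild type at E8, a log2 ratio of 0.89, just short of the fold of 2. The E10 values were 447 FPKM in Tc/Tc and 415 FPKM in wild type, a log2 ratio of 0.11 that became -0.05 after centring on the median. Ftl1, the light chain that helps form the iron core, was at 178 FPKM in Tc/Tc and 161 FPKM in wild type at E8, a log2 ratio of 0.15, then at 253 FPKM in Tc/Tc and 233 FPKM in wild type at E10. The Fth1 level was 27.2 times that of Tfrc in Tc/Tc E8 and 15.8 times in wild type E8, against 9.73 times in Tc/Tc E10 and 9.61 times in wild type E10. Ferritin genes have processed pseudogenes that can share reads with them. Of these, Fth-ps2 was listed at 0.931 to 1.28 FPKM. Another ferritin row, Ftl2, was listed at 5.97 to 11.5 FPKM. How many reads such rows share with Fth1 or Ftl1 was not tested.

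Slc40a1 (ENSMUSG00000025993) encodes ferroportin, the only known iron exporter of mammalian cells. It stood at 8.94 FPKM in Tc/Tc and 3.99 FPKM in wild type at E8, a log2 ratio of 0.99, then at 3.37 FPKM in Tc/Tc and 1.24 FPKM in wild type at E10, a log2 ratio of 0.96. As ratios of FPKM with nothing added these are 2.24-fold and 2.71-fold, so it is the added 1 that leaves this low gene short of the rule. With a pseudocount of 0.1 both passed, at 1.14 and 1.37.

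**Figure D3:**
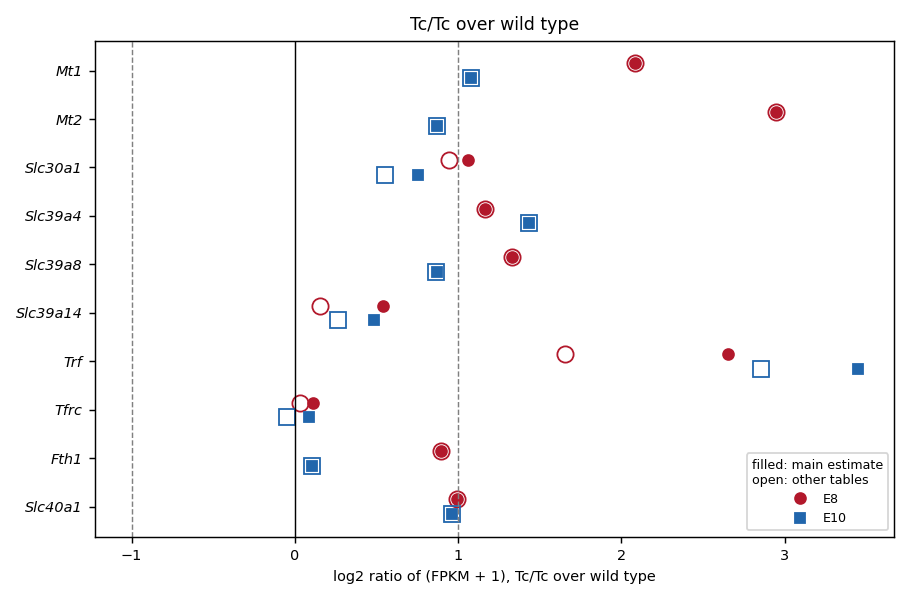
Log2 ratio of FPKM + 1, Tc/Tc over wild type, for each of the 10 genes at E8 (red circles) and E10 (blue squares), with open symbols for values from the other tables and dashed lines at the fold of 2. All filled points lie right of 0, Mt2 and Mt1 lie farther right at E8 than at E10, and Trf lies farther right at E10.

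Markers of the visceral endoderm and yolk sac moved in the same direction. Over all genes, 4.21% were higher in Tc/Tc at E8 and 4.94% at E10. Of 15 markers of that tissue, listed with earlier results of these data known, 14 were in the files, and their counts test nothing. At E8, 11 of 13 compared were higher in Tc/Tc and 0 lower (median log2 ratio 1.60), and their summed level was 3160 FPKM in Tc/Tc and 1025 FPKM in wild type. At E10, 13 of 14 were higher and 0 lower (median 4.37), with sums of 693 FPKM in Tc/Tc and 20.6 FPKM in wild type, where Amn, Apoa4, Apoc2 and Spink3 were listed at 0. Trf, Slc39a4 and the metallothioneins are known to be expressed in that tissue. The part of its RNA in the ratios above was not tested, and in whole embryos more cells of a type cannot be told apart from more RNA per cell. At E10 the median of these markers, 4.37, stood above the ratio of each of the 10 genes, the nearest being Trf at 3.45. At E8 their median of 1.60 stood below the ratios of Mt2 (2.94), Trf (2.65) and Mt1 (2.08) and above those of the other 7 genes. With the other estimates the E8 ratio of Trf was 1.65, close to that median, which is itself from the main estimates.

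Markers of other cell types were summed in the same way, and their part in the ratios was not tested. Genes of primitive erythroid cells, which take up much iron, summed to 109 FPKM in Tc/Tc and 125 FPKM in wild type at E8, with 1 of 10 higher and 2 lower. At E10 they summed to 2201 FPKM in Tc/Tc and 6143 FPKM in wild type, with 0 of 13 higher and 5 lower, while Tfrc, the receptor those cells rely on, was near level. Trophoblast genes summed to 18.0 FPKM in Tc/Tc and 4.40 FPKM in wild type at E8, with 2 of 3 compared higher and Tpbpa and Prl3d1 listed at 0. At E10 they summed to 3.81 and 1.56 FPKM in Tc/Tc and wild type, with 0 of 1 past the fold. Hepatocyte genes summed to 23.6 and 10.4 FPKM at E8 and to 6.64 and 2.99 FPKM at E10 in Tc/Tc and wild type, and 2 of 2 and 1 of 1 compared were higher. Alb, the defining gene of that list, was listed at 0 in both E8 libraries and in Tc/Tc E10. Macrophage genes summed to 6.27 and 3.84 FPKM at E8 and 5.10 and 3.10 FPKM at E10, with 1 of 3 and 0 of 2 higher and C1qa and Emr1 listed at 0. Decidual genes summed to 3.38 and 1.14 FPKM at E8 and 2.22 and 2.80 FPKM at E10, with 1 of 2 and 0 of 1 higher. The higher gene at E8 was Prl8a2, whose Tc/Tc level was 3.21 FPKM while wild type was listed at 0. No ratio from the other estimates was available for Prl8a2. Dcn, the other decidual gene compared at E8, ran the opposite way within the rule. Its Tc/Tc level was 0.175 FPKM against 1.14 FPKM for wild type, a log2 ratio of -0.86.

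Over the 9 lists of other metal genes, 3 of 51 compared were higher in Tc/Tc at E8 and 5 of 56 at E10, with 0 lower, beside the 7.22% and 8.03% of all genes past the fold either way. None of the other 6 zinc exporter genes compared (Slc30 family) passed the fold of 2 at either stage, with medians of 0.05 at E8 and 0.13 at E10. Slc30a2, a zinc transporter of secretory vesicles, came nearest at E8, at 2.10 FPKM in Tc/Tc and 0.570 FPKM in wild type (0.98). Of the other zinc importers (Slc39 family), 1 of 8 was higher at E8 and 1 of 9 at E10, and 0 were lower. This was Slc39a5 both times, an importer of gut and yolk sac in the mouse. It stood at 19.0 FPKM in Tc/Tc and 6.21 FPKM in wild type at E8. The E10 level was 3.44 FPKM in Tc/Tc, where wild type was listed at 0. Slc39a4 and Slc39a5 thus shared the pattern of being listed at 0 in wild type E10 alone.

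Iron genes other than the 4 described were mostly within the rule. In the list for uptake and reduction 0 of 5 passed at E8 and 0 of 6 at E10. In that for storage, export and oxidation 0 of 5 passed at each stage. Heph, of the latter list, came nearest at E8, at 2.77 FPKM in Tc/Tc and 6.22 FPKM in wild type. Its log2 ratio was -0.94 at E8 and 0.10 at E10. Of the sensing and hepcidin genes, 0 of 4 passed at E8 and 0 of 5 at E10. Among these, Aco1, which becomes an iron regulatory protein when iron is low, was at 44.5 FPKM in Tc/Tc and 31.0 FPKM in wild type at E8. Its log2 ratio was 0.51, and 0.07 with the other estimates. Ireb2, which encodes the second iron regulatory protein, was at 27.1 FPKM in Tc/Tc and 28.1 FPKM in wild type. The hepcidin genes Hamp and Hamp2 were listed at 0 in each library.

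In the heme list, 1 of 5 was higher at E8 and 2 of 6 at E10. Hmox1, the inducible enzyme that releases iron from heme, stood at 30.9 FPKM in Tc/Tc and 12.6 FPKM in wild type at E8, a log2 ratio of 1.23. At E10 Abcg2, an exporter of porphyrins, stood at 73.3 FPKM in Tc/Tc and 31.2 FPKM in wild type (1.21, and 0.84 with the other estimate). Slc48a1, a heme transporter, stood at 1.50 and 0.148 FPKM in Tc/Tc and wild type (1.12, and 0.22 with the other estimate). For iron-sulfur assembly 1 of 8 passed at E8, the desulfurase Nfs1, at 18.5 FPKM in Tc/Tc and 7.51 FPKM in wild type (1.20, and 0.89 with the other estimates), and 0 of 8 at E10. Copper genes had 0 of 9 past the rule at E8 and 2 of 9 higher at E10. Atp7b, a copper exporter, stood at 3.65 FPKM in Tc/Tc and 0.900 FPKM in wild type, and the copper chaperone Atox1 at 26.1 FPKM in Tc/Tc and 11.3 FPKM in wild type.

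**Figure D4:**
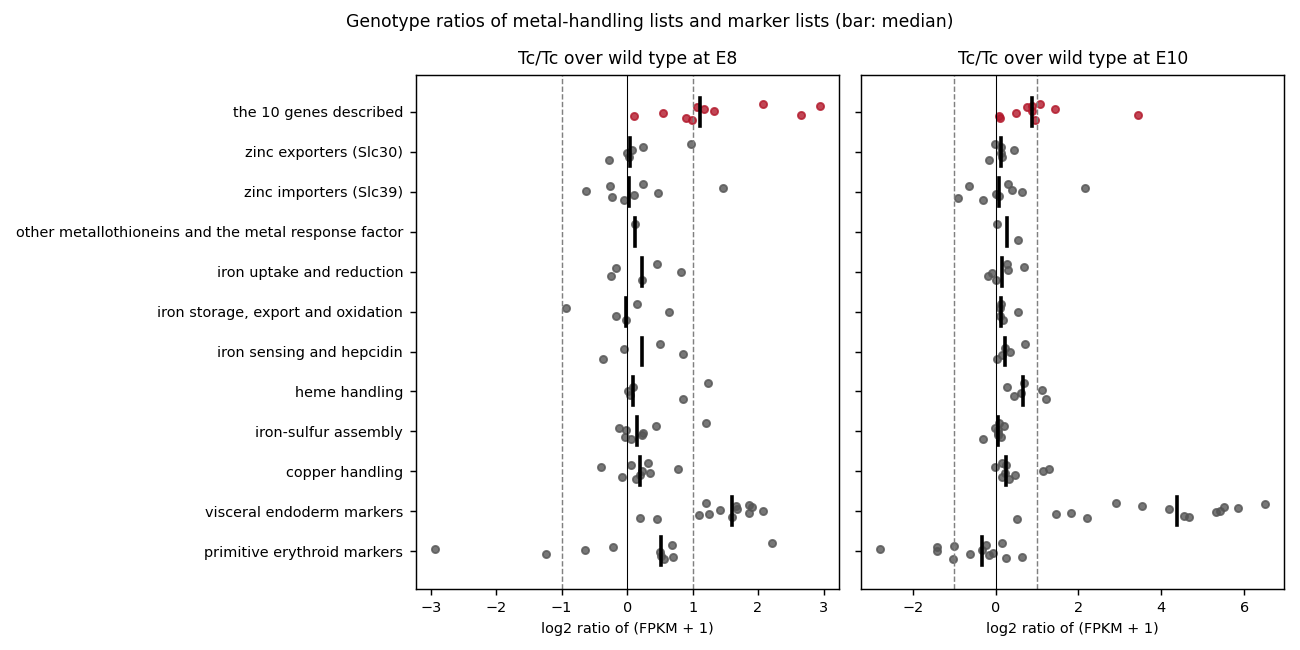
Log2 ratios of FPKM + 1, Tc/Tc over wild type, at E8 (left) and E10 (right) for the 10 genes (red) and for each list of other metal genes and markers (grey), with 1 point per gene compared, a bar at the median and dashed lines at the fold of 2. Medians of the other metal lists lie between -0.02 and 0.65, and those of visceral endoderm markers are 1.60 at E8 and 4.37 at E10.

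The stage comparisons asked how the same genes differ between E10 and E8 within a genotype. Between them and the genotype comparisons libraries are shared, so their values are only set side by side. In wild type, 0 of the 10 were higher at E10 and 4 lower, where 12.5% of 14239 genes passed, 7.36% higher and 5.15% lower. In Tc/Tc, 0 were higher and 6 lower, where 11.5% of 13803 genes passed, 7.72% higher and 3.78% lower. The Tc/Tc pair joins estimates from separate tables, and the wild-type ratios use the stage table, whose second estimates differ from the levels given above for some genes.

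The metallothioneins ran in opposite directions in the 2 genotypes. In Tc/Tc, Mt2 was lower at E10 (67.0 FPKM) than at E8 (162 FPKM), a log2 ratio of -1.26, and Mt1 was at 62.0 FPKM at E10 and 100.2 FPKM at E8, a ratio of -0.68. In wild type, Mt2 was at 36.2 FPKM at E10 and 20.1 FPKM at E8, a ratio of 0.81, and Mt1 at 28.8 and 22.9 FPKM at E10 and E8, a ratio of 0.32. Of these 4 values only that of Mt2 in Tc/Tc passed the fold of 2. That of Mt1 in wild type was below 0.35, which is 2 SD of re-estimation. Summed over both genes, the level was 129 FPKM at E10 and 262 FPKM at E8 in Tc/Tc, and 65.0 FPKM at E10 and 43.1 FPKM at E8 in wild type.

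The zinc transporters had negative ratios of E10 over E8 in both genotypes. Slc39a4 had a log2 ratio of -1.67 in Tc/Tc, and in wild type it was listed at 0 at E10 against 2.82 FPKM at E8. Slc39a8 had ratios of -1.49 in Tc/Tc embryos and -1.02 in wild-type embryos. Those of Slc30a1 were -1.09 in Tc/Tc embryos, or -0.95 with equal totals, and -0.70 in wild-type embryos. Slc39a14 stayed within the rule, at -0.43 in Tc/Tc embryos and -0.54 in wild-type embryos. The summed level of the 3 importers was 33.6 FPKM at E10 and 88.8 FPKM at E8 in Tc/Tc, and 18.4 FPKM at E10 and 39.6 FPKM at E8 in wild type.

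Among the iron genes, Trf had a log2 ratio of -0.99 in Tc/Tc and -2.19 in wild type. With the other estimates these were -1.99 and -2.79, so in Tc/Tc the call depends on the table, since 132 and 65.5 FPKM were given for 1 library. Slc40a1 was lower at E10 in both genotypes, with ratios of -1.19 in Tc/Tc and -1.15 in wild type. Fth1 had a ratio of -1.22 in Tc/Tc and -0.44 in wild type, while Ftl1 ran the other way, with 0.51 in Tc/Tc and 0.49 in wild type. Tfrc had positive ratios in both, within the rule, of 0.33 in Tc/Tc and 0.41 in wild type. Slc25a37, the mitochondrial iron importer mitoferrin, known for its role in red cells, was higher at E10 in both, at 16.3 FPKM at E10 against 4.80 FPKM at E8 in Tc/Tc and 18.6 FPKM at E10 against 5.85 FPKM at E8 in wild type. Over the 9 lists of other metal genes together, 4 of 53 genes compared were higher at E10 and 2 lower in Tc/Tc, and 3 of 54 were higher and 3 lower in wild type. Slc39a5 was lower in both, at 3.44 FPKM at E10 and 19.0 FPKM at E8 in Tc/Tc, and listed at 0 at E10 against 6.22 FPKM at E8 in wild type. Visceral endoderm markers were lower at E10 in 13 of 14 in Tc/Tc (median -2.15) and in 13 of 13 in wild type (median -5.23), and their part in the lower members was not tested.

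**Figure D5:**
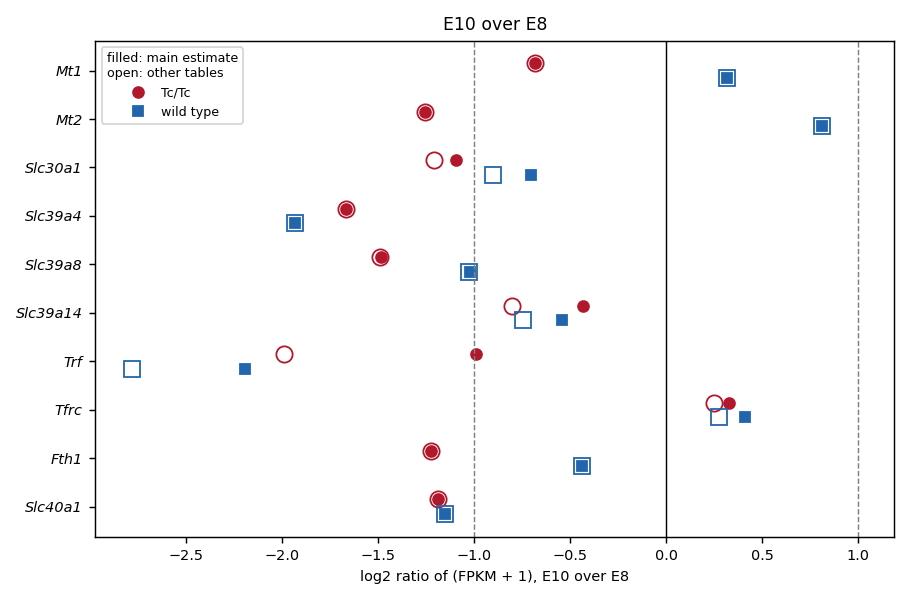
Log2 ratio of FPKM + 1, E10 over E8, for each of the 10 genes in Tc/Tc (red circles) and wild type (blue squares), with open symbols for values from the other tables and dashed lines at the fold of 2. Mt1 and Mt2 lie left of 0 in Tc/Tc and right of 0 in wild type, and Tfrc lies right of 0 in both.

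Ordered by level, the 4 libraries fell into a few patterns. Mt1 and Mt2 were highest in Tc/Tc E8, then Tc/Tc E10, wild type E10 and wild type E8, and Trf was highest in Tc/Tc E8, then Tc/Tc E10, wild type E8 and wild type E10. Slc30a1, Slc39a4, Slc39a8, Slc39a14 and Slc40a1 were highest in Tc/Tc E8, then wild type E8, Tc/Tc E10 and wild type E10. Fth1 had that order too, with Tc/Tc E10 and wild type E10 closer than the largest SD of re-estimation. For Slc30a1 and Slc39a8 the middle pair, wild type E8 and Tc/Tc E10, was also closer than that SD. Tfrc alone of the 10 had its larger levels at E10 in both genotypes, and its levels in Tc/Tc and wild type of 1 stage were closer than that SD. Its step from wild type E10 to Tc/Tc E8 (0.165) was below that SD as well.

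Genes with the most similar pattern were taken as those with the smallest root mean square difference of log2(FPKM + 1) over the 4 libraries, each gene centred on its mean, among 14136 genes. For Mt2 the nearest gene of all was Mt1 (0.314), and outside the 10 genes Fabp3 (0.385), Gata1 (0.394) and Gm11534 (0.397). For Mt1 they were Dbndd2 (0.191), Snora52 (0.233) and Vwa5a (0.256), and Mt2 came 11th of all genes. Trf was near to Tdh (0.330) and Folr1 (0.379). Slc39a4 was nearest to Cobll1 (0.0487), Dnajc22 (0.0580) and Fgb (0.0617), and Tfrc to B3gnt9-ps (0.00487), Xiap (0.00646) and Zfand6 (0.00778). Some of these genes are near the floor, where the added 1 shapes the pattern. The highest level in any library was 1.96 FPKM for Snora52, 3.41 FPKM for Gm11534 and 1.05 FPKM for B3gnt9-ps. Snora52 and Gm11534 were listed at 0 in wild type E8.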

How the data were processed

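RNA of whole embryos was extracted with TRIzol LS and made into directional libraries with the ScriptSeq v2 kit, per the labels' protocols. Bowtie2, Cuffdiff and build mm9 were used, per the submitters' processing notes, with neither versions nor annotation stated. Per the file headers, the FPKM values deposited stand in 4 tables of library pairs, with fold changes as natural logs. Another 1 column of per-sample values, headed wild type E10 in the Tc/Tc stage table, was not used. Cuffdiff can estimate 1 library differently in separate tables, since isoform shares are fitted, and a very abundant transcript lowers all other FPKM values of its library. With read depth unknown, no counting error could be given.

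A gene at 0 in each library of a pair was taken as not estimated. Ratios were log2 of (FPKM + 1), for genes at 1 FPKM or more in one or both libraries, and a gene was called at an absolute ratio of 1. There is 1 library per group, so nothing was tested. For Tc/Tc stages, E10 came from the genotype table and E8 from the stage table. The ratio step was tested on simulated data. Named genes were the 10 members, up to 4 per list and comparison past the rule with the largest ratios, and the 3 nearest in pattern to 5 members, of which 1 is not reported here. Mt3, Mt4, Mtf1, Ftl1, Ftl2, Fth-ps2, Aco1, Ireb2, Hamp and Hamp2 were named for their roles. Slc30a2 and Heph were named for ratios near the threshold, and Dcn as the other decidual gene compared. All of these were named after their values were seen. The members and lists were chosen with earlier results of these data known. Motifs were searched in RefSeq promoter windows and GENCODE transcripts, which are of another build than mm9. Python 3.11.15, pandas 2.3.3 and numpy 2.4.6 were used.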

Additional observations from a re-analysis of the deposited data

Results flagged for a closer look

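Mt2 differed in direction between the genotypes from E8 to E10. Its log2 ratio of E10 over E8 was -1.26 in Tc/Tc and 0.81 in wild type, a difference of -2.07. It was picked out because both ratios exceeded 0.35, which is 2 SD of re-estimation of 1 library, with opposite signs. With 1 library per group the difference was not tested, and its cause was not tested.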

How the results depend on the processing

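No paired analysis was possible because each group has 1 library, and no library could be left out. Of the single ratios of the 10 genes under 7 alternatives, 252 kept their direction and side of the fold of 2, 15 no longer passed it, 5 came to pass it and 4, of Tfrc and Fth1, changed sign without passing it on either side. No called ratio changed sign. With a pseudocount of 5, members called were 1 (main 3) for genotype at E10, 1 (main 4) for stage in wild type and 3 (main 6) for stage in Tc/Tc, and with a minimum of 5 FPKM 2 in wild type. Over all genes, calls with a pseudocount of 0.1, a pseudocount of 5 and a minimum of 5 FPKM were 1560, 307 and 609 at E8 (main 978), 1758, 419 and 741 at E10 (main 1145), and 2500, 541 and 1028 for Tc/Tc stages (main 1588). For wild-type stages (main 1782) they were 624 with a pseudocount of 5 and 1065 with a minimum of 5 FPKM. Calls over the other metal lists were 6 at E8 with a pseudocount of 0.1 (main 3), of which 5 were higher and 1 lower. At E10 (main 5) they were 1 with a pseudocount of 5, 2 with a minimum of 5 FPKM and 3 with the other table estimates. With a pseudocount of 5 they were 2 for wild-type stages (main 6) and 3 for Tc/Tc stages (main 6). Equal totals moved the median over all genes by -0.20 at E8 and by 0.14 for Tc/Tc stages. At E8 the split of calls was 571 higher and 407 lower as deposited, and 371 and 551 with equal totals, where 4 of the 10 genes were higher. At E10 it was 705 and 440, and 487 and 568 after centring, where 2 were higher. For wild-type stages it was 1048 and 734, and 739 and 796 with the other estimates, and for Tc/Tc stages 1066 and 522, and 837 and 686 after centring. The cause of these shifts was not tested. Read depth and embryo number are unknown.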
